A study of Mus musculus with 6 samples.

Results

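The cytochrome P450 genes of mouse small intestinal organoids were compared between Snai1 knockout and control cultures. The members were taken by their platform symbol (Cyp, a number, letters and a number, with or without a closing letter), leaving out Cyp51 and pseudogenes, and numbered 84 of 19057 genes, read by 126 of 45281 probes. Organoids are epithelial structures grown from intestinal crypts, and total RNA was labelled with biotin and hybridised to Illumina arrays. The Snai1 knockout group held 3 samples with the strain Villin-Cre, Snai1fl/fl, and the control group 3 samples with the strain Villin-Cre alone. All 6 cultures had received 0.5 µM Tamoxifen for 24 hours, so both groups carried the Cre transgene and the drug. The Villin promoter drives expression in the intestinal epithelium, and the labels do not say whether the samples of a group came from separate animals, so p-values measure the spread between samples, which may be technical. The series title names lineage allocation and stem cell maintenance as the subject of the comparison.

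Cytochrome P450 enzymes are haem proteins that insert oxygen into small molecules with electrons from P450 reductase or, in mitochondria, ferredoxin. The families numbered from Cyp1 to Cyp3 clear drugs and dietary chemicals, Cyp4 enzymes hydroxylate fatty acids and eicosanoids, and the higher families mostly make or break down bile acids, steroids, vitamin D and retinoic acid. In the small intestine they sit mainly in villus enterocytes, where nuclear receptors such as Nr1i2 (PXR) and Nr1i3 (CAR) induce them. Tamoxifen is itself a P450 substrate, and since all cultures received it these arrays hold no untreated comparison.

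Promoters were set beside the values because Snai1 encodes a zinc finger repressor that binds the E-box CAGGTG. The RefSeq windows of GRCm38.p6, each 300 bases long (250 before to 50 after a gene's start), matched 62 of the 84 genes with 70 windows. On either strand, CAGGTG was present in 17 of the 70 windows (24.3%), against 20.2% of all 32851 promoter windows. Another motif, CAAAGTCCA, which is bound by the hepatocyte nuclear factor HNF4, was present in 9 of the 70 (12.9%), against 0.475% of all windows. Those 9 belonged to Cyp2c40, Cyp2c65, Cyp2c67, Cyp2c68, Cyp2c70, Cyp3a11, Cyp3a16, Cyp3a41b and Cyp8b1, of which the Cyp2c and the Cyp3a genes are related copies within their subfamilies and so share sequence. The TATA box letters TATAAA were present in 37.1% of P450 windows and 13.6% of all windows. The other letters searched on both strands were AGGTCA (27.1% of P450 windows and 16.3% of all), AGTTCA (15.7% and 14%), both half-sites of nuclear receptors, GCGTG (21.4% and 32.4%), the core bound by the aryl hydrocarbon receptor, and a palindromic form of the HNF1 site (0 of 70 and 0.0609%). AGGTCA and CAGGTG can overlap only at their ends, so a match of AGGTCA is not in itself a match of CAGGTG. A match describes these letters only, and no binding was measured.

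The windows of the Cyp2c65, Cyp2c70 and Cyp3a11 genes are shown because they hold CAAAGTCCA, in capitals, and belong to the genes with the widest differences between genotypes or replicates. They lie at chr19:39060756-39061055 (plus strand), chr19:40187237-40187536 (minus strand) and chr5:145879805-145880104 (minus strand) of GRCm38.p6, and are written 5′ to 3′ on the gene's strand.
Cyp2c65: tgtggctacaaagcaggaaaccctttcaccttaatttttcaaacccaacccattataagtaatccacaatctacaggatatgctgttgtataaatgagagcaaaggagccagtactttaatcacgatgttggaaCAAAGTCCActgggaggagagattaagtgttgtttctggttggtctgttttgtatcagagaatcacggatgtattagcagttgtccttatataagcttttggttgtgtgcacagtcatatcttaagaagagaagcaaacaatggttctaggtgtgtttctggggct
Cyp2c70: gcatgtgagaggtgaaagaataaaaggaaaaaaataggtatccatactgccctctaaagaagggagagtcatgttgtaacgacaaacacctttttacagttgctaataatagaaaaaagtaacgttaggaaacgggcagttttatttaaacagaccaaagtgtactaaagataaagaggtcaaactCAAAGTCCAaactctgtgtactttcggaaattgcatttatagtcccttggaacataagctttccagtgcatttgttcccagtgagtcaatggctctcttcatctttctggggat
Cyp3a11: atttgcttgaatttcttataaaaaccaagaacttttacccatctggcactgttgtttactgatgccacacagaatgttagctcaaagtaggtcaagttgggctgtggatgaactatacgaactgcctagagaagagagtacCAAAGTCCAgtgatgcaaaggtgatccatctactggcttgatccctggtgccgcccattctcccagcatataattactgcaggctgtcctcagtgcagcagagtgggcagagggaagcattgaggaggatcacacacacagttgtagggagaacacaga
In these windows CAAAGTCCA begins at base 135 for Cyp2c65, 187 for Cyp2c70 and 142 for Cyp3a11, on the printed strand in each.

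The windows of Cyp11a1, Cyp20a1 and Cyp3a13 hold the E-box CAGGTG, or its reverse complement CACCTG, in capitals, as do windows of 16 P450 genes in all. These genes were chosen with their values known, and Cyp11a1 and Cyp20a1 are those above the upper quartile whose groups do not overlap. The windows lie at chr9:57997774-57998073 (plus strand), chr1:60343050-60343349 (plus strand) and chr5:137921570-137921869 (minus strand) of GRCm38.p6.
Cyp11a1: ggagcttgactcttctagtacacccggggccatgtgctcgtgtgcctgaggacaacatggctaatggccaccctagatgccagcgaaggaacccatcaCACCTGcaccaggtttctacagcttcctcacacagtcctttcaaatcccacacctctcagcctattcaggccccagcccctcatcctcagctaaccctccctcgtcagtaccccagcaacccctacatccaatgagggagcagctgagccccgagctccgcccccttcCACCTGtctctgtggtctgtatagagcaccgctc
Cyp20a1: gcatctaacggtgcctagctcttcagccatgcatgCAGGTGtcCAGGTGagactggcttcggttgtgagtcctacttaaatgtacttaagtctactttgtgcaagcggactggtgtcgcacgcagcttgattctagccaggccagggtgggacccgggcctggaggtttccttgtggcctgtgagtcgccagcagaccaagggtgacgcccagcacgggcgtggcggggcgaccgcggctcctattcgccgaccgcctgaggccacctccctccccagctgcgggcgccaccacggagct
Cyp3a13: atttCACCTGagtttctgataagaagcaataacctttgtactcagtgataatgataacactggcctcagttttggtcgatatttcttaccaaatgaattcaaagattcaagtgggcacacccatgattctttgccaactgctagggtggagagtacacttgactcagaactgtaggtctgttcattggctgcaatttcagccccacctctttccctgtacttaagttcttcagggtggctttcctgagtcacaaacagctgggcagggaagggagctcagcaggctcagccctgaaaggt
Cyp11a1 and Cyp20a1 had 2 matches each and Cyp3a13 had 1. Cyp11a1 has another RefSeq start, whose window held 0 matches. Among the genes described below, Cyp11a1 read lower in the knockout, Cyp20a1 read higher and Cyp3a13 differed by -0.01.

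Levels are deposited log values taken as log2, on a scale whose lowest value was 7.71, median 7.87, upper quartile 8.27 and highest 14.8. Values near the low end are compressed, which makes differences of dim genes too small by a factor that is not known, and the brightness of different probes does not rank transcript abundance. The arrays correlated at r = 0.994 to 0.997 over all probes. Snai1 was read by 2 probes near the median, and its brighter probe gave 7.91, 7.86 and 7.96 on knockout arrays, against 7.87, 7.93 and 7.94 on control arrays. Both probes sat too low on the scale to show a deletion, so Snai1 does not check the labels. The epithelial markers Krt8, Cdx2 and Cdh1 averaged 14.26, 12.74 and 11.44 over the arrays, and 7 of 8 epithelial markers lay above the upper quartile. Of the hepatocyte, fibroblast or muscle, immune, endothelial and gastric markers measured (9, 8, 5, 3 and 4 genes), 0 lay above it.

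Of the 84 P450 genes, 22 read above the upper quartile of all values, 15 between the median and the upper quartile and 47 below the median. No P450 gene passed the limma test over all genes at an adjusted p of 0.05 (0 of 84, against 0.131% of all genes, 0.0367% higher and 0.0945% lower), and the lowest adjusted p was 0.113. With the replicate number as a block it was again 0 of 84, against 0.0472% of all genes. At an unadjusted p under 0.05 there were 7 of 84 (3 higher and 4 lower in the knockout), which is 8.33% against 7.22% of all genes (3.88% higher and 3.34% lower). Knockout and control arrays did not overlap for 10 of 84, or 11.9% against 12.0% of all genes, with 6 higher and 4 lower (6.20% and 5.85% of all genes). Both shares lay near the background, so these counts are not a result about P450 genes. The median difference was -0.004 over the 84, against -0.001 over all genes, 43 of 84 had a lower mean in the knockout (against 50.7% of all genes), and 72 of 84 differed by less than 0.1. Among the 22 above the upper quartile, 15 had a lower mean in the knockout (68.2%, against 48.6% of all genes above it), 2 did not overlap between groups (against 14.9%), and their median difference was -0.07, against 0.004 for all 6969 genes above it. Cyp20a1 lay just above that line at 8.30 and Cyp2c23 just under it at 8.25. Of the 22, the mean was lower in 10 of 12 Cyp2 genes, 1 of 3 Cyp3 genes, 3 of 5 Cyp4 genes and 1 of 2 others. The 22 share arrays and include related copies, so the 15 lower means are not independent. With an array left out, Cyp2b23, Cyp2d10, Cyp2d22, Cyp2d26, Cyp3a13 and Cyp4f16 changed sign among the lower genes. Cyp2s1, Cyp3a11, Cyp3a25 and Cyp4f14 did so among the higher genes. Enterocyte markers also read lower in the knockout in 12 of 16 cases, with a median difference of -0.04. Intestinal epithelium markers went the other way, with 6 of 8 higher and a median difference of 0.04. The part of either list in the P450 values was not tested. In simulated data with independent noise, a difference of 0.5 among genes above the upper quartile was recovered for 74.6% of 67 genes. The median SE was 0.104 for the 22 P450 genes, against 0.067 for all genes above the upper quartile. That share of 74.6% therefore does not carry over to the P450 genes.

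**Figure D1:**
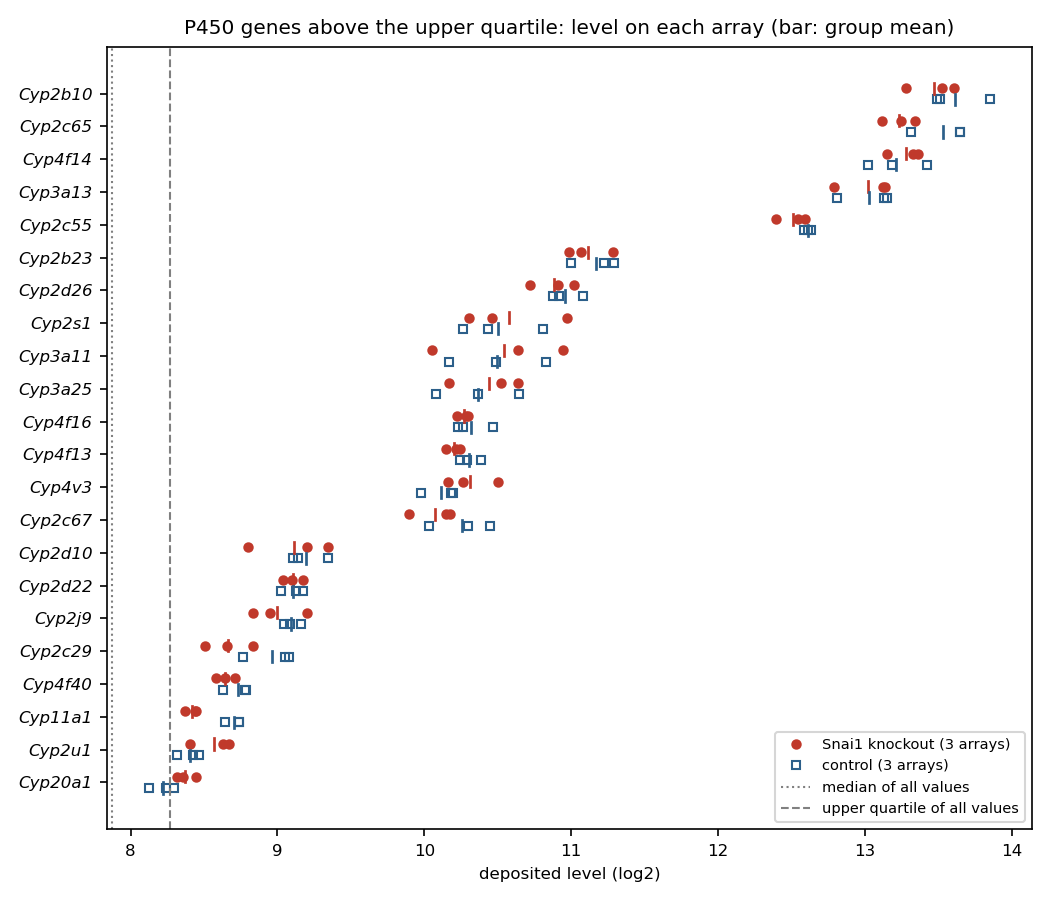
Level (log2) of the 22 P450 genes above the upper quartile on each of 3 knockout arrays (filled circles) and 3 control arrays (open squares), with short bars for group means and vertical lines for the median and upper quartile of all values. Cyp11a1 and Cyp20a1 are the genes whose 2 groups do not overlap, and the 3 Cyp3a genes spread widely within both groups.

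Cyp11a1, the mitochondrial enzyme that starts steroid synthesis by making pregnenolone from cholesterol, had the lowest p of the family. It read 8.44, 8.44 and 8.37 on knockout arrays, against 8.74, 8.74 and 8.64 on control arrays. The groups did not overlap, and the 3 same-numbered pairs differed by -0.30, -0.30 and -0.27. The difference was -0.29 ± 0.04 (SE; 95% interval -0.38 to -0.20), or 1.22-fold higher in control, with an adjusted p of 0.113, and 0.0706 with the replicate number as a block, so it did not pass in either fit. This came from the brightest of 3 probes. The other probes averaged 7.90 and 7.85, near the median of all values, and differed by 0.03 and -0.04, and averaging the probes gave -0.10. With the lowest value subtracted and 16 added before logs were taken, the difference was -0.60 (adjusted p = 0.0861). Over all alternatives run its adjusted p was between 0.0592 and 0.358, so it passed in none. Of the other steroid hormone enzymes, Cyp11b1, Cyp11b2, Cyp17a1 and Cyp21a1 read between 7.81 and 7.99 and differed by 0.0004 to 0.05. In mouse intestine the receptor Nr5a2 (LRH-1) is known to drive Cyp11a1. Nr5a2 read 9.95, 9.89 and 9.83 on knockout arrays, against 9.55, 9.19 and 9.47 on control arrays, without overlap. Its difference was 0.49 ± 0.09 (SE; adjusted p = 0.273), and its relation to the Cyp11a1 values was not tested. The Nr5a2 values came from the brightest of 3 probes, and its other probes are not reported here.

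Cyp2c70, which makes muricholic acids from chenodeoxycholic acid in mice, had the largest positive difference. It read 8.48, 8.24 and 8.25 on knockout arrays, against 7.999, 7.99 and 7.97 on control arrays. The groups did not overlap, and the control values sat at the compressed low end with an SD of 0.02. The difference was 0.34 ± 0.07 (SE; 95% interval 0.17 to 0.51; adjusted p = 0.284), or 1.26-fold. It passed in a fit that lets the variance follow the level (adjusted p = 0.0124), and in one in which the lowest value was subtracted and 16 added before logs were taken, where the difference was 1.07 (adjusted p = 0.00702). Over the other alternatives run its adjusted p was between 0.0699 (without knockout replicate 1, where the difference was 0.26) and 0.555. It has 1 probe, so no other probe checks it.

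Of the 13 Cyp2c genes 9 had a lower mean in the knockout. The 4 above the upper quartile, Cyp2c65, Cyp2c29, Cyp2c67 and Cyp2c55, were each lower in 3 of 3 same-numbered pairs, and none passed the test. With the probes of a gene averaged, the differences of Cyp2c65, Cyp2c29 and Cyp2c67 shrank to -0.06, -0.14 and -0.03. Cyp2c65, an intestinal enzyme of arachidonic acid metabolism, read 13.24, 13.11 and 13.34 on knockout arrays, against 13.65, 13.31 and 13.65 on control arrays. These values overlapped between groups, and the difference was -0.30 ± 0.11 (SE; adjusted p = 0.619). Its other 3 probes, which averaged 11.90, 11.44 and 11.06, differed by -0.03, 0.06 and 0.04, so the difference appeared on the brightest of 4 probes alone. Cyp2c29, an epoxygenase of arachidonic acid, read 8.51, 8.66 and 8.83 on knockout arrays, against 9.05, 8.76 and 9.08 on control arrays. Its groups overlapped, with a difference of -0.30 ± 0.12 (SE; adjusted p = 0.657), and its other probe, at 7.79, lay at the bottom of the scale. Cyp2c67 differed in opposite directions on its 2 probes. The brighter gave 10.18, 9.89 and 10.14 on knockout arrays, against 10.29, 10.03 and 10.44 on control arrays (difference -0.18 ± 0.12, SE). The dimmer gave 7.99, 7.99 and 7.96 on knockout arrays, against 7.86, 7.85 and 7.87 on control arrays, without overlap (0.12 ± 0.02, SE; adjusted p = 0.185 over all probes). Cyp2c genes are close copies of each other, and whether a probe reads its neighbours was not tested, because probe sequences were not used here. Cyp2c55, induced by PXR and CAR, read 12.59, 12.40 and 12.54 on knockout arrays, against 12.63, 12.61 and 12.59 on control arrays (-0.10 ± 0.05, SE; adjusted p = 0.803). Cyp2c23 differed by 0.04, and the remaining Cyp2c genes read below 7.9.

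**Figure D2:**
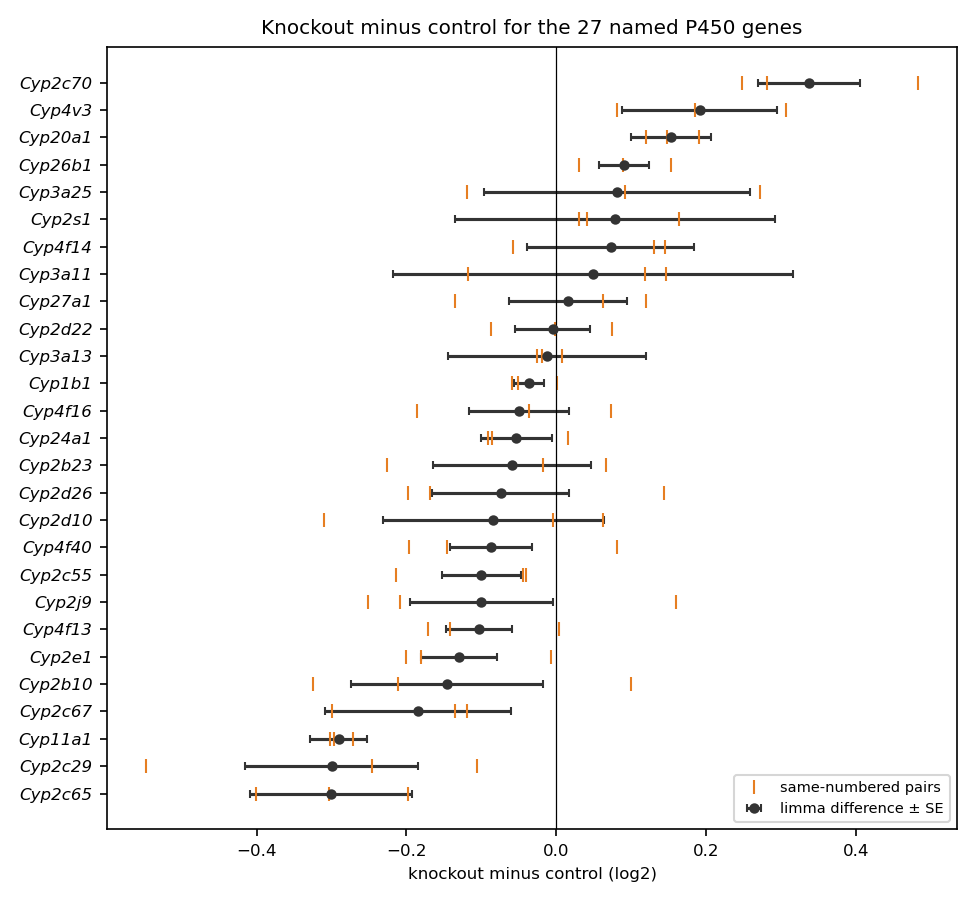
Knockout minus control difference (log2) of the 27 named P450 genes, as the limma estimate with its SE (black) and as the 3 differences between arrays of the same replicate number (orange ticks). Cyp2c70 lies at 0.34 and Cyp11a1 at -0.29, and Cyp3a11 has the widest error bar at ± 0.27.

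The Cyp2b and Cyp3a genes are the textbook targets of CAR and PXR. Cyp2b10, the classical CAR target, read 13.53, 13.28 and 13.61 on knockout arrays, against 13.85, 13.49 and 13.51 on control arrays. The groups overlapped, with a difference of -0.15 ± 0.13 (SE; 95% interval -0.46 to 0.17; adjusted p = 0.927), and its dimmer probe differed by -0.10. Cyp2b23 averaged 11.11 ± 0.16 on knockout arrays and 11.17 ± 0.15 on control arrays (SD, n = 3 each), and the groups overlapped here too. The CAR gene Nr1i3 read 9.25, 9.20 and 9.14 on knockout arrays, against 9.43, 9.57 and 9.41 on control arrays, without overlap. Its difference was -0.28 ± 0.05 (SE; adjusted p = 0.257). These Nr1i3 values came from the brightest of 5 probes, and its other probes are not reported here. The PXR gene Nr1i2, which was singled out after its values were seen, read 9.69, 9.63 and 9.74 on knockout arrays, against 9.82, 9.81 and 9.80 on control arrays, again without overlap (-0.13 ± 0.03, SE; adjusted p = 0.387).

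Cyp3a11, the major inducible Cyp3a enzyme of the mouse and a PXR target, read 10.95, 10.05 and 10.64 on knockout arrays, against 10.83, 10.17 and 10.49 on control arrays. Each group spanned most of the range of the other, and the difference of 0.05 ± 0.27 (SE) had a 95% interval of -0.61 to 0.70. Cyp3a13, whose expression in mice is high in intestine, read 13.12, 12.79 and 13.14 on knockout arrays, against 13.15, 12.81 and 13.13 on control arrays (-0.01 ± 0.13, SE), and its dimmer probes differed by -0.14 and -0.10. Cyp3a25 read 10.52, 10.17 and 10.64 on knockout arrays, against 10.64, 10.08 and 10.37 on control arrays (0.08 ± 0.18, SE). The samples numbered 2 were the lowest of their group for all 3 genes. The other 4 Cyp3a genes, Cyp3a16, Cyp3a41b, Cyp3a44 and Cyp3a57, read between 7.78 and 7.82, at the bottom of the scale.

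Deviations from the group means over the 22 P450 genes above the upper quartile correlated at r = 0.66, 0.80 and 0.33 between the knockout and control arrays numbered 1, 2 and 3, given as a description across genes. Knockout array 3 correlated more with control array 1 (r = 0.51) than with control array 3. For each gene the mean of the knockout and control array was taken per replicate number, and the gap between the highest and lowest of these means was measured. The median gap was 0.255 for the 22, against 0.140 for all such genes. The array numbered 2 was the lowest of its group in both groups for 11 of the 22 (50%), against 16% of all genes above the upper quartile and 13.3% of all genes. These 11 were Cyp2b10, Cyp2c65, Cyp4f14, Cyp3a13, Cyp2b23, Cyp3a11, Cyp3a25, Cyp4v3, Cyp2c67, Cyp2u1 and Cyp20a1. Cyp2s1, an extrahepatic P450, went the other way and read 10.30, 10.97 and 10.46 on knockout arrays, against 10.26, 10.81 and 10.43 on control arrays. Cyp2s1 and Cyp2d22 were highest in the array numbered 2 of both groups, as were 15.1% of all genes above the upper quartile. The number 2 was singled out from these same values, and arrays numbered 1 and 3 were not counted this way. The 22 genes also include related copies, so these shares describe the values and test nothing.

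An F test of the replicate number, added after the data were seen, called 0 of 19057 genes over all genes (limma; 2351 at an unadjusted p under 0.05, among them 14 of the 84 P450 genes, 16.7% against 12.3% of all genes). Over all genes it also called 0 in each of the 6 fits with an array left out. When the 6969 genes above the upper quartile alone were tested, it called 393 of them (5.64%) and 6 of the 22 P450 genes. This restricted test was not repeated with an array left out. Its 6 P450 calls were Cyp3a11 (adjusted p = 0.000122), Cyp2s1 (0.000503), Cyp3a25 (0.00992), Cyp3a13 (0.0192), Cyp2c67 (0.0413) and Cyp2d10 (0.0414). In the F test over all genes the adjusted p of these 6 lay between 0.157 and 0.359, so the calls depend on the filter. Enterocyte markers moved with the replicate number as well, and 8 of the 16 were lowest in the array numbered 2 of both groups. Their mean level was 10.42, 10.37 and 10.64 on knockout arrays, against 10.60, 10.33 and 10.72 on control arrays, and their part in the P450 pattern was not tested. The labels do not say what arrays of 1 number share.

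**Figure D3:**
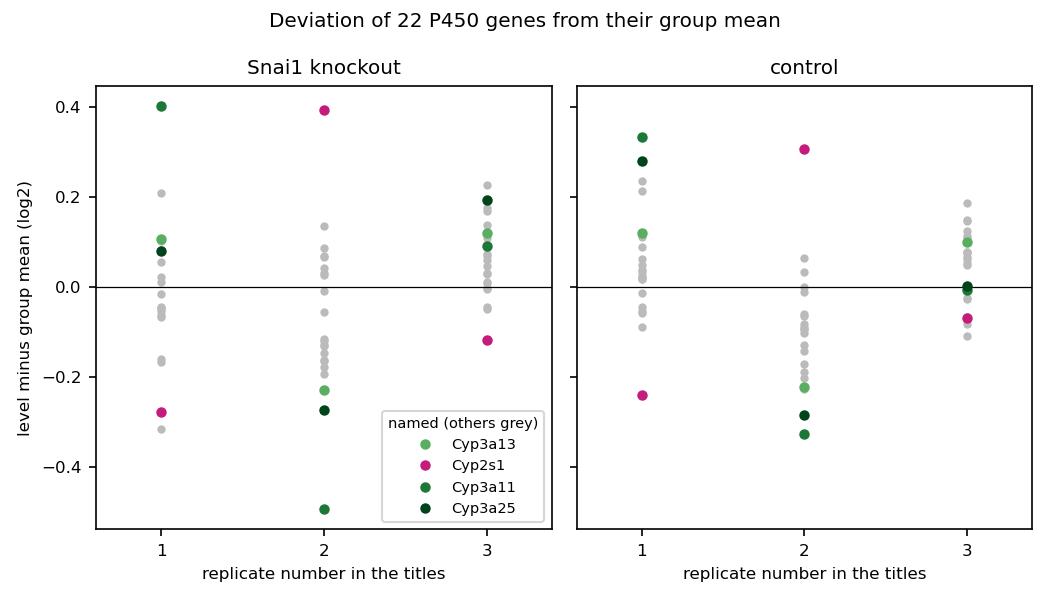
Level of each of the 22 P450 genes above the upper quartile minus the mean of its group (log2), by the replicate number in the titles, for knockout arrays (left) and control arrays (right). On array 2 of both groups the 3 Cyp3a genes lie 0.22 to 0.49 below their group mean and Cyp2s1 lies 0.39 (knockout) and 0.31 (control) above it.

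The Cyp4 family held 15 members, 5 of them above the upper quartile, and none passed. Cyp4f14, an enzyme that inactivates leukotriene B in mice, read 13.36, 13.15 and 13.33 on knockout arrays, against 13.42, 13.02 and 13.18 on control arrays (0.07 ± 0.11, SE). Cyp4v3, the mouse counterpart of a human fatty acid hydroxylase mutated in a retinal dystrophy, read 10.26, 10.16 and 10.50 on knockout arrays, against 10.18, 9.98 and 10.20 on control arrays. It was higher in 3 of 3 pairs, its groups overlapped, and it differed by 0.19 ± 0.10 (SE; adjusted p = 0.808). Cyp4f13, Cyp4f16 and Cyp4f40 differed by -0.10, -0.05 and -0.09 and were lower in 2 of 3 pairs each, and all 3 probes of Cyp4f16 were lower, by 0.05 to 0.15. Cyp4b1 differed by -0.07, and the 4 Cyp4a genes, known targets of PPARA in liver, read between 7.80 and 7.88.

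The Cyp2d genes, a family that metabolises many drugs, had 3 of 8 members above the upper quartile. Cyp2d26 read 10.72, 11.02 and 10.91 on knockout arrays, against 10.91, 10.88 and 11.08 on control arrays, and its 3 probes differed by -0.07, -0.03 and -0.02. Cyp2d10 read 8.80, 9.20 and 9.34 on knockout arrays, against 9.11, 9.14 and 9.35 on control arrays, where knockout replicate 1 was low. Cyp2d22 differed by -0.005 ± 0.05 (SE), with a 95% interval of -0.13 to 0.12. Cyp2j9 was the single Cyp2j gene of 7 above the median of all values, and it differed by -0.10 ± 0.10 (SE).

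Of the smaller families, Cyp20a1, an orphan P450 with no settled substrate, read 8.36, 8.32 and 8.44 on knockout arrays, against 8.24, 8.13 and 8.30 on control arrays. The groups did not overlap, and the difference was 0.15 ± 0.05 (SE; adjusted p = 0.602). This came from its brighter probe. The dimmer probe of Cyp20a1 averaged 7.90, overlapped between groups and differed by 0.02. Cyp2u1, a fatty acid hydroxylase named here after its values were seen, was higher in 3 of 3 pairs by 0.16 ± 0.08 (SE; adjusted p = 0.769). Its dimmer probes averaged 7.96 and 7.85 and differed by 0.01 and -0.01. Cyp2e1, which oxidises ethanol, read 7.97, 8.04 and 8.04 on knockout arrays, against 8.16, 8.05 and 8.24 on control arrays, without overlap (-0.13 ± 0.05, SE; adjusted p = 0.675). Cyp26b1, which clears retinoic acid, read 7.95, 7.99 and 7.87 on knockout arrays, against 7.86, 7.83 and 7.84 on control arrays (0.09 ± 0.03, SE; adjusted p = 0.631). It lay at the compressed end of the scale, as did Cyp26a1.

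Most P450 genes of bile acid, vitamin D and aryl hydrocarbon metabolism read near the bottom of the scale in both groups. Cyp27a1, the sterol hydroxylase of the alternative bile acid pathway, read 8.08, 8.09 and 8.24 on knockout arrays, against 8.21, 7.97 and 8.18 on control arrays (0.02 ± 0.08, SE). Cyp7a1, the rate-limiting enzyme of hepatic bile acid synthesis, averaged 7.78, and Cyp7b1, Cyp8b1, Cyp39a1 and Cyp46a1 averaged 7.84 to 7.97. Cyp24a1, which degrades active vitamin D and is induced by its receptor, read 7.85, 7.91 and 7.84 on knockout arrays, against 7.83, 8.004 and 7.93 on control arrays. The receptor gene Vdr differed by -0.07 ± 0.08 (SE). Cyp27b1 and Cyp2r1, which activate vitamin D, averaged 7.81 and 7.79. The aryl hydrocarbon receptor targets Cyp1a1, Cyp1a2 and Cyp1b1 averaged 7.82, 7.81 and 7.83, and Ahr itself 7.81. At these levels a difference between groups was not detectable for most of these genes.

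**Figure D4:**
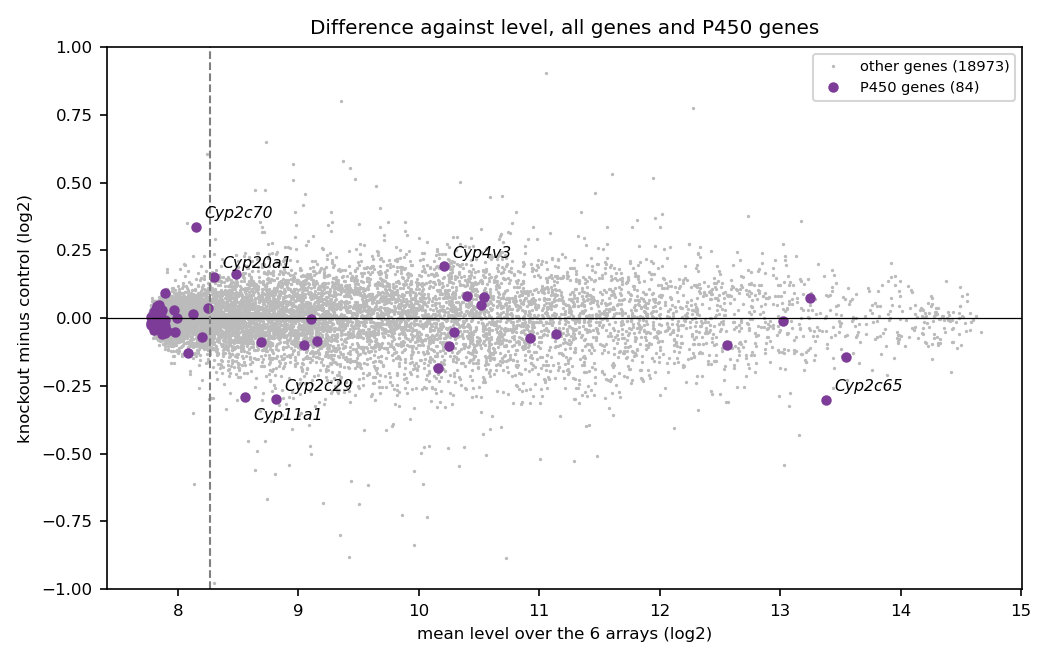
Knockout minus control difference (log2) against the mean level over the 6 arrays (log2) for the 84 P450 genes (purple) and all other genes (grey), with a dashed line at the upper quartile of all values. The P450 genes lie between -0.30 and 0.34, within the range of the other genes, and 4 other genes lie outside the axis.

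The partners of the P450 system gave 0 called genes in each list, against 0.131% of all genes. At these list sizes that share makes 0 the usual count, so it is no result about the partners. The lists were chosen with earlier results of these data known. Of the electron donors, cytochrome b5 partners and haem genes, 16 of 19 were measured, with 11 higher, 5 lower and a median difference of 0.02. The bright cytochrome b5 genes Cyb5a and Cyb5b differed by 0.02 and 0.12 and the reductase gene Cyb5r3 by -0.21 ± 0.12 (SE). Alas1, the first enzyme of haem synthesis, chosen after its values were seen, differed by 0.02 ± 0.09 (SE), and Alad, the next, by -0.17 ± 0.07 (SE; adjusted p = 0.653). Por, which encodes P450 reductase, was not analysed here. Of the aryl hydrocarbon receptor axis 7 of 10 were higher, and Nqo1, Gsta1 and Ugt1a7c differed by 0.03, 0.08 and 0.09.

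Of the 21 measured receptors and factors that govern P450 genes, 10 were higher and 11 lower, with a median of -0.01. Besides Nr5a2, Nr1i3 and Nr1i2 above, Pparg read 9.74, 9.79 and 9.73 on knockout arrays, against 9.92, 9.91 and 9.92 on control arrays (-0.16 ± 0.02, SE; adjusted p = 0.136). For Pparg this was the brightest of 3 probes, and its other probes are not reported here. The HNF4 motif stands in the printed windows of Cyp2c65, Cyp2c70 and Cyp3a11. Hnf4a read 12.03, 12.53 and 12.65 on knockout arrays, against 12.13, 12.09 and 12.46 on control arrays (0.17 ± 0.19, SE). Of 34 measured phase II enzymes and transporters, 14 were higher and 20 lower, with a median of -0.005. The conjugating enzymes Gstm1 and Mgst1 and the dehydrogenase gene Adh1 differed by 0.07, -0.11 and -0.07, Gsta4 by -0.18 ± 0.06 (SE; adjusted p = 0.591), and Fmo1 and the efflux pump gene Abcb1b, both near the low end, by 0.12 and 0.10. Cyp51, Ptgis and Tbxas1, P450 genes outside the symbol rule, differed by 0.15, 0.01 and 0.001.

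**Figure D5:**
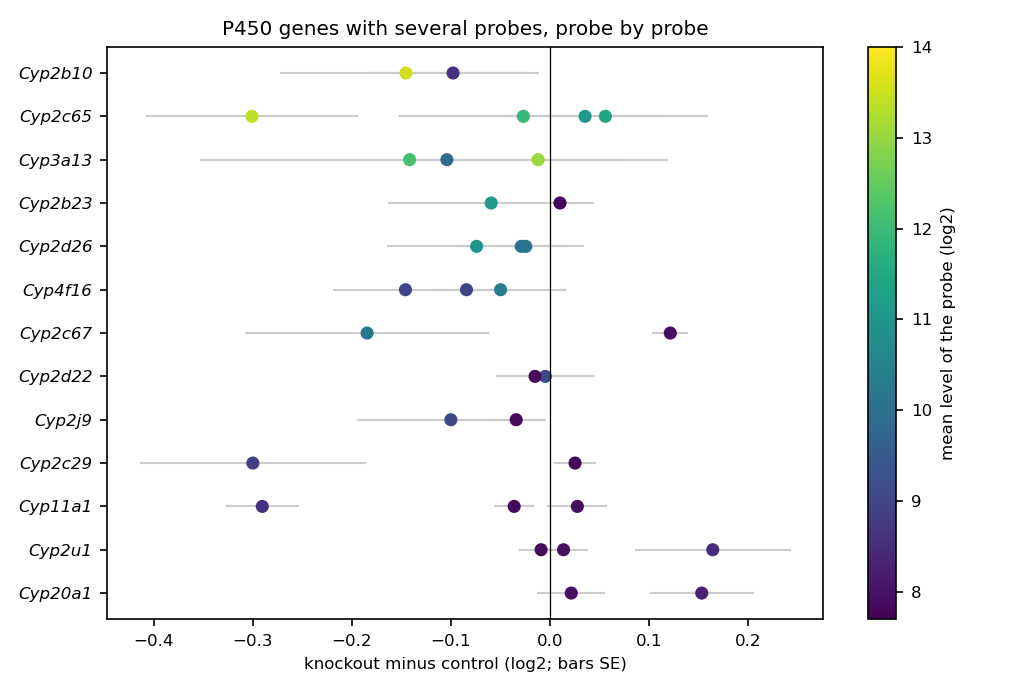
Knockout minus control difference (log2, bars SE) of each probe of the 13 P450 genes above the upper quartile that have several probes, coloured by the probe's mean level (log2). The 4 probes of Cyp2c65 lie at -0.30, -0.03, 0.04 and 0.06, and for Cyp11a1 the probe at -0.29 is the brightest of 3.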

How the data were processed

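RNA from 3 Snai1 knockout and 3 control organoid samples was measured on Illumina arrays, and the number of arrays limits the precision. The authors deposited a table of values for 45281 probes on a logarithmic scale whose base was read as log2, and these entered every test as deposited. Once sorted, the columns agreed to within 0.00187, which shows distributions made equal before deposit. For the log base, background correction and software, the sources used here name none. No detection calls are in the table, and no probe was called absent. Platform annotation paired 34885 probes with 1 gene symbol, 18 with several and 10378 with none. The probe with the highest mean over the arrays stood for each of 19057 genes, of which 18992 matched the GRCm38.p6 gene table by gene number with 0 symbols changed. Groups were taken from the titles. The comparison used the limma package (version 3.58.1, R version 4.3.3), with lmFit, eBayes and Benjamini-Hochberg adjustment over all genes at a threshold of 0.05, and without a filter on dim genes. Named genes were those of the 20 highest means, the 8 lowest p-values and the brightest of each role group, and in other lists the 3 brightest and the 3 of lowest p. Other members are given for their role or range. Members and lists were chosen with earlier results of these data known. Deviations from group means over all genes correlated at r = 0.35, 0.33 and 0.46 between arrays numbered 1, 2 and 3, so the numbers were taken to pair the samples in an alternative fit. In simulated data the test recovered 74.6% of 67 genes changed by 0.5, 97.0% of 67 changed by 1 and 100% of 66 changed by 2, among genes above the upper quartile, and 6.22% of its calls were unchanged genes. The simulated noise was independent between arrays and held no effect of the replicate number. Promoters came from RefSeq.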

Additional observations from a re-analysis of the deposited data

How the results depend on the processing

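The count of P450 genes called was 0 in the reported fit and in 16 of 18 alternatives (replicate block, probes averaged, filters at the median and upper quartile, cyclic loess, median-centred arrays, robust variances, array weights, all probes, symbols ending in a digit, and each array left out). It was 1, Cyp2c70, with a variance trend (adjusted p = 0.0124) and with the lowest value subtracted and 16 added (adjusted p = 0.00702). The replicate block changed no P450 call. At an unadjusted p under 0.05 the P450 count of 7 (8.33%, against 7.22% of all genes) was 10 with the block (11.9%, against 10.9%), 3 of 22 with the filter at the upper quartile (13.6%, against 9.48%), 2 without control replicate 1 (2.38%, against 6.53%) and 4 without knockout replicate 1 (4.76%, against 9.09%). Over all genes the 25 calls became 9 with the replicate block, 41 with the filter at the upper quartile, 60 (25 higher) with a variance trend and 42 (19 higher) with the lowest value subtracted, against 7 higher of 25 as reported. They were 4 to 23 with an array left out. The cause was not tested. Of the 27 named differences, 11 changed sign in some setting, none of them called. With array weights Cyp2d22 was at 0.0108 and Cyp3a11 at -0.0536. With an array left out the ranges were -0.152 to 0.296 for Cyp3a11, -0.123 to 0.102 for Cyp3a13, -0.0606 to 0.222 for Cyp3a25, -0.119 to 0.232 for Cyp2s1, -0.198 to 0.0741 for Cyp2d10, -0.0458 to 0.0278 for Cyp2d22, -0.142 to 0.00924 for Cyp2d26, -0.147 to 0.00538 for Cyp2b23, -0.0608 to 0.0620 for Cyp27a1, -0.0211 to 0.180 for Cyp4f14 and -0.0960 to 0.0245 for Cyp4f16. Of those that kept their sign, the ranges with an array left out were -0.215 to -0.0278 for Cyp2b10, -0.298 to -0.0909 for Cyp2c67, -0.141 to -0.0425 for Cyp2c55, -0.204 to -0.0184 for Cyp2j9, -0.178 to -0.0844 for Cyp2e1, -0.0974 to -0.0129 for Cyp24a1, -0.135 to -0.0644 for Cyp4f13, -0.138 to -0.0566 for Cyp4f40 and 0.0943 to 0.265 for Cyp4v3. The same ranges were -0.324 to -0.266 for Cyp11a1, -0.412 to -0.241 for Cyp2c65 and -0.401 to -0.220 for Cyp2c29. They were 0.258 to 0.380 for Cyp2c70, 0.106 to 0.191 for Cyp20a1, 0.0666 to 0.123 for Cyp26b1 and -0.0467 to -0.0300 for Cyp1b1. With the lowest value subtracted, differences of dim genes grew, to -0.598 for Cyp11a1, -0.530 for Cyp2c29, -0.443 for Cyp2e1, 0.480 for Cyp26b1 and 0.404 for Cyp20a1. Signal close to the low end of the scale limits most of the 47 P450 genes below the median.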
